A study of Homo sapiens with 8 samples.

Results

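The secreted and membrane mucins were taken as 10 genes, found in the deposited count table by Ensembl identifier, of 63241 gene rows in all. MUC5B, MUC7 and MUC19 are made by mucous and seromucous glands. MUC1, MUC4, MUC15, MUC16, MUC20, MUC21 and MUC22 lie in the membrane of epithelial cells. Each of the 10 had counts in at least 3 of the 8 libraries. By their labels, 4 libraries came from cells given si-Col1a1, an siRNA against the collagen gene COL1A1, and 4 from cells given the non-targeting si-NC. Both groups carry the same cell line label, HSC3, a line from a human oral squamous cell carcinoma, the same 100 pmol of siRNA with the same lipid reagent and the same 48 h of culture after transfection. The titles call the treated libraries a knockdown and the column names call them a knockout. Libraries are called here knockdown 1 to 4 and control 1 to 4, after their titles. Whether the 4 libraries of a group were grown as separate cultures is not stated in the labels, so p-values measure the spread between libraries whatever its source.

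Mucins are proteins with long stretches rich in serine, threonine and proline, to which sugar chains are attached through the oxygen of serine and threonine. Gel-forming mucins such as MUC5B and MUC19 are linked into polymers that give saliva and airway mucus their viscosity, while MUC7 is a small secreted mucin of saliva that does not form gels. Membrane mucins carry a single membrane-spanning segment and cover the surface of wet epithelia, where several of them also take part in signalling. In the mouth, salivary glands secrete MUC5B and MUC7, and the squamous surface carries membrane mucins such as MUC1, MUC4 and MUC21.

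The libraries held 30684584 to 61795990 counts. COL1A1, the siRNA's target, had 367.6, 122.7, 300.9 and 155.0 CPM (a gene's counts scaled to the library's total count) in knockdown 1 to 4, against 88.9, 8183, 475.9 and 689.5 CPM in control 1 to 4. The groups overlapped, and control 1 had the least COL1A1 of all 8 libraries (edgeR log2 fold change -2.97, SE 1.30, adjusted p = 0.981; -0.48 without control 2). Because COL1A1 and the labels disagreed in control 1, each direction below is one between libraries labelled knockdown and libraries labelled control. The line label was set against marker lists for the cell types of the mouth. The 10 squamous markers, led by KRT6A, KRT14 and KRT5, the keratins of stratified epithelium, summed to 982 to 129978 CPM in the libraries labelled knockdown and to 471 to 56329 CPM in those labelled control. The lowest squamous sums of each label were those of knockdown 2 and control 1. The 14 gland markers, led by LYZ, DMBT1 and ZG16B, which glands secrete, summed to 72951 CPM in knockdown 2 and 47814 CPM in control 1, with all 14 above 3 counts in both. In the other 6 libraries the gland markers summed to 27.6 to 100.5 CPM, with 6 to 9 of the 14 at or under 3 counts. Most of each of these low sums was LYZ, at 22.3 to 95.1 CPM. The 7 skeletal muscle markers reached 37184 CPM in knockdown 2 and 44353 CPM in knockdown 4, against 140497 CPM in control 1 and 141461 CPM in control 3. They summed to 3931 CPM in control 2, and to 35.5, 36.1 and 28.0 CPM in knockdown 1, knockdown 3 and control 4. Markers of 3 tissues at these levels go against a label of 1 squamous carcinoma line. The 5 fibroblast markers summed to 317 to 815 CPM under the knockdown label and 645 to 10542 CPM under the control label, the 3 endothelial markers to 124 to 460 and 118 to 451 CPM, and the 4 leukocyte markers to 16.6 to 41.4 and 16.9 to 92.4 CPM.

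The coding sequences show what the group shares apart from the rule. In the GENCODE v29 transcript with the longest complete reading frame, serine, threonine and proline codons made up 31.9% of the codons of MUC15 and 41.8% to 53.4% in 8 other mucins. The median over 19528 protein-coding genes was 18.7%, and the 95th percentile was 27.9%. MUC19 had no complete coding transcript there. MUC7, MUC1, MUC21 and MUC22 carry their sugars largely on repeated units, and the most frequent exact unit of each is shown because its length and the density of serine and threonine codons, in capitals, set these mucins apart from each other.
MUC7: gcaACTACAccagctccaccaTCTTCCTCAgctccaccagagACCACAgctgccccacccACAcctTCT
MUC1: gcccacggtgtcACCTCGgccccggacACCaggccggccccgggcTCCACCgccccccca
MUC21: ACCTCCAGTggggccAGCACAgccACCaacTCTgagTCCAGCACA
MUC22: ggcTCTgagACCACCACAgccTCTACTgaa
The MUC7 unit is 69 bases with 9 serine or threonine codons, and repeats of that period with at least 80% identity covered 42.5% of its coding sequence. The MUC1 unit is 60 bases with 5 such codons and covered 69.4%, with 19 exact copies. The units of MUC21 and MUC22 are 45 and 30 bases with 10 and 6 such codons, and covered 73.8% and 61.6%. The printed unit has only 2 exact copies in MUC7, with 5 in MUC21 and 7 in MUC22. Repeats of MUC4 and MUC20, not printed, covered 60.7% and 32.7%, with 7 and 10 exact copies of a unit. MUC15 had no tandem repeat by the same search.

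Promoters are shown for MUC7 and MUC19, gland mucins highest in the same library, and for the surface mucin MUC22 for comparison. RefSeq's promoter table (GRCh38.p14) held 10 windows for 6 of the 10 mucins, each of 250 bases before and 50 after a start. It held none for MUC5B, MUC15, MUC20 or MUC21, so nothing is said of the MUC5B promoter. The letters TATAAA, the core of a TATA box, stood in 6 of these windows, 24 to 30 bases before the start. These are 5 sites in 4 genes, since the MUC1 windows overlap and hold the same site. Of 35116 promoter windows in the table, 2.21% held these letters on the gene strand 24 to 36 bases before the start, and 11.5% held them anywhere on either strand. Only windows with the letters TATAAA are printed. A further MUC7 window, chr4:70471708-70472007, lacked the letters and is left out. Each line gives the 100 bases before a start on the plus strand, with the letters TATAAA in capitals.
MUC7, chr4:70430392-70430491: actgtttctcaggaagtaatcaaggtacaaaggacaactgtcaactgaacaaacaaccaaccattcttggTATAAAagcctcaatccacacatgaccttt
MUC7, chr4:70472097-70472196: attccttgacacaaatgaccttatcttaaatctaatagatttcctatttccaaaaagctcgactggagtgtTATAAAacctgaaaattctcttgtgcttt
MUC19, chr12:40393294-40393393: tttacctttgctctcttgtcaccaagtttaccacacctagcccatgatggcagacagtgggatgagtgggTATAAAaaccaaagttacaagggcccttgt
MUC22, chr6:31010374-31010473: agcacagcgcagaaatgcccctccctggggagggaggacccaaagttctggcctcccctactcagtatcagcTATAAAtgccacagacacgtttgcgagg
Both MUC1 windows also held the letters, so they were not confined to gland mucins. The forkhead letters TGTTTAC (3.42% of all windows, either strand) and the SPDEF-type letters CCGGAT (7.12%) were in none of the 10 windows. The CREB3-type letters GACGTG (7.81%) were in the MUC4 window and the AP-1 letters TGANTCA (7.71%) in 1 window of MUC16. The MUC16 windows, chr19:9010360-9010659 and chr19:9065702-9066001, lie outside the GENCODE v29 span of MUC16, which ends at 8981342.

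MUC5B and MUC7 were high in 1 library of each label, knockdown 2 and control 1, and low in the other 6, while MUC19 was high in knockdown 2 alone. MUC5B, the main gel-forming mucin of saliva (chromosome 11 from 1223066 to 1262172, plus strand, GRCh38), had 2.49, 60244, 1.73 and 3.43 CPM in knockdown 1 to 4, against 3948, 0.566, 1.89 and 0.519 CPM in control 1 to 4. These are 150, 1848575, 63 and 125 counts under the knockdown label, and 145227, 35, 61 and 27 under the control label. Knockdown 2 lay 15.3-fold above control 1 and 17584-fold above the highest of the other 6 libraries. The labels overlapped, since control 1 lay above 3 of the knockdown libraries. In bulk RNA, fewer cells of a type and less RNA per cell cannot be told apart.

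MUC7, the small non-gel salivary mucin (chromosome 4 from 70430492 to 70482997, plus strand), followed the same libraries at a lower level. It had 0.166, 8781, 0 and 0.0548 CPM in knockdown 1 to 4, against 60.9, 0.0971, 0.0620 and 0.0769 CPM in control 1 to 4. Outside knockdown 2 and control 1 these are 0 to 10 counts a library. The excess of knockdown 2 over control 1 was 144-fold for MUC7, so the salivary mucins were not in 1 ratio in these libraries. MUC7 made up 12.7% of MUC5B and MUC7 counts in knockdown 2 (Wilson 95% interval 12.68 to 12.77) and 1.52% in control 1 (1.46 to 1.58). Per kilobase of exon, MUC5B and MUC7 stood close together in knockdown 2, at 3239 and 3138 CPM per kb, while in control 1 they stood at 212 and 21.8 CPM per kb.

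MUC19, a gel-forming mucin with the longest genomic span of the 10 (chromosome 12 from 40393395 to 40570832, plus strand), was found in quantity in knockdown 2 only. Its counts were 0, 1256, 0 and 10 in knockdown 1 to 4, against 0, 18, 0 and 0 in control 1 to 4, or 40.9 CPM in knockdown 2, 0.274 CPM in knockdown 4 and 0.291 CPM in control 2. Control 1, which held 145227 counts of MUC5B, had 0 of MUC19, which allows up to 0.0816 CPM (3 counts), so MUC19 was at least 502-fold higher in knockdown 2 than in control 1. The gland transcripts of these libraries thus differed in their mucins: the summed gland mucins were 0.947 times the summed gland markers in knockdown 2 and 0.0838 times in control 1. Of the gland markers, chosen here after their values were seen, DMBT1, a scavenger receptor protein of saliva, had 2303 CPM in knockdown 2 and 19651 CPM in control 1. STATH, a calcium-binding salivary protein, had 7447 CPM in knockdown 2 and 39.5 CPM in control 1.

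**Figure D1:**
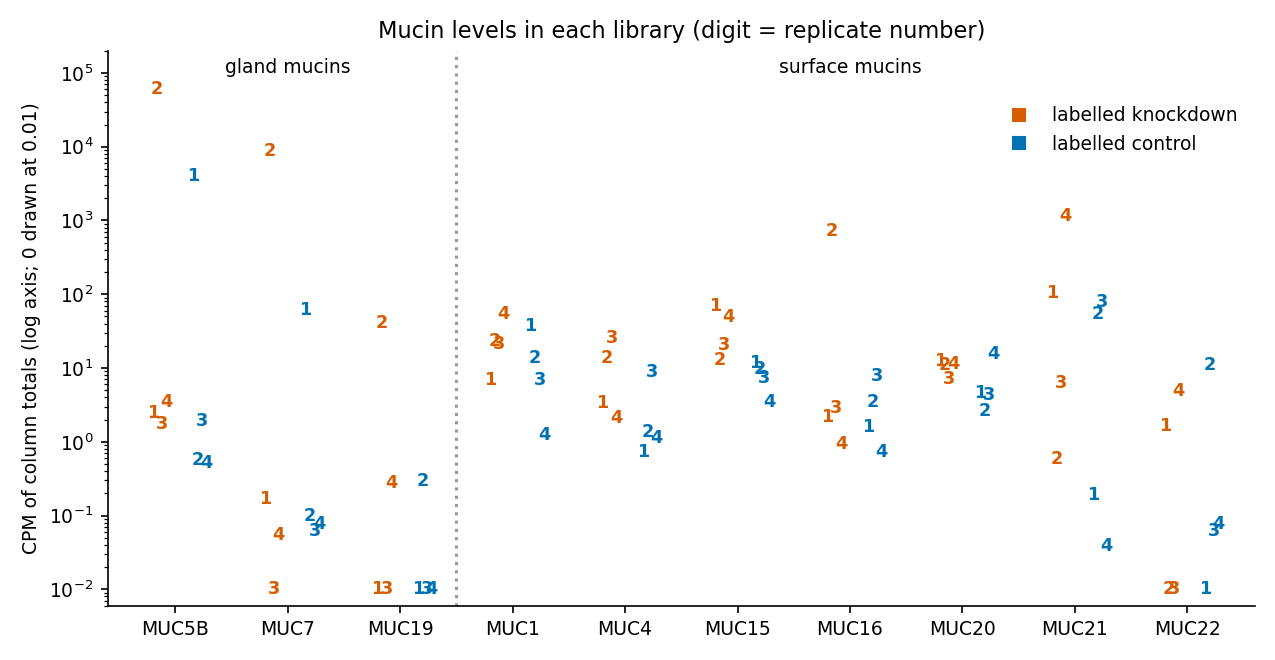
CPM of column totals (log axis) of each of the 10 mucins, with 1 digit per library giving its replicate number and its colour giving its label; a count of 0 is drawn at 0.01. MUC5B, MUC7 and MUC19 are set by knockdown 2 at 60244, 8781 and 40.9 CPM, with control 1 next for MUC5B and MUC7, while the labels of the surface mucins are spread over each other except for MUC15.

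The surface mucins did not share 1 leading library: 6 of the 8 libraries were highest for at least 1 of the 7, and knockdown 4 for both MUC1 and MUC21. MUC16, the largest membrane mucin and the carrier of the CA125 antigen (chromosome 19 from 8848844 to 8981342, minus strand), had 2.16, 726.6, 2.91 and 0.932 CPM in knockdown 1 to 4, against 1.58, 3.46, 7.85 and 0.731 CPM in control 1 to 4. Only knockdown 2 stood apart, 92.6-fold above the highest of the 6 libraries poor in gland markers. Control 1, the other library rich in gland markers, had 58 counts of MUC16, and knockdown 2 was 461-fold above it. MSLN, the surface protein to which MUC16 binds, had 13.4, 337.1, 1.21 and 0.0548 CPM in knockdown 1 to 4, against 0.272, 0.841, 0.248 and 0.538 CPM in control 1 to 4. Its highest library was again knockdown 2.

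MUC21, a membrane mucin of stratified squamous epithelium (chromosome 6 from 30983718 to 30989903, plus strand), had 103.8, 0.587, 6.25 and 1152 CPM in knockdown 1 to 4, against 0.190, 54.1, 79.3 and 0.0384 CPM in control 1 to 4. Its counts ran from 2 in control 4 to 42049 in knockdown 4, the widest range of any surface mucin that had counts in all 8 libraries, and the labels overlapped. Its 4 highest libraries, knockdown 4, knockdown 1, control 3 and control 2 in that order, were also the 4 highest, in the same order, for KRT13, a keratin of non-cornified squamous layers named after its values were seen. Other squamous markers differed: KRT4, the partner of KRT13, had control 4 above control 2, and KRT5 was highest in knockdown 1, control 2, control 4 and knockdown 3. Knockdown 3, with 89283 CPM of squamous markers, had only 6.25 CPM of MUC21, and control 4, with 39214 CPM, had 0.0384 CPM. A high squamous sum thus did not go with MUC21 in every library.

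MUC22, a neighbour of MUC21 on the same strand (chromosome 6 from 31010474 to 31035402), had 97, 0, 0 and 178 counts in knockdown 1 to 4, against 0, 687, 2 and 4 in control 1 to 4. In CPM it was 1.61 in knockdown 1 and 4.88 in knockdown 4, against 11.1 in control 2. MUC22 was high in 3 of the 4 libraries that led for MUC21, but the levels of the neighbours did not keep 1 ratio. MUC22 stood at 1.55% of the MUC21 level in knockdown 1 and 0.423% in knockdown 4, against 20.5% in control 2 and 0.0782% in control 3.

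MUC1, the widely expressed membrane mucin of glandular and ductal epithelia (chromosome 1 from 155185824 to 155192916, minus strand), had 6.81, 23.0, 21.0 and 53.4 CPM in knockdown 1 to 4, against 37.4, 13.5, 6.98 and 1.25 CPM in control 1 to 4. Its highest library was knockdown 4 and its second highest control 1, and the labels overlapped. MUC4, a membrane mucin that binds the receptor ERBB2 (chromosome 3 from 195746765 to 195812277, minus strand), had 3.36, 13.8, 25.3 and 2.11 CPM in knockdown 1 to 4, against 0.734, 1.36, 8.96 and 1.13 CPM in control 1 to 4. Knockdown 2 and knockdown 3 lay above every control, while the other knockdown libraries lay below control 3.

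MUC15, a membrane mucin first described in milk (chromosome 11 from 26559033 to 26572233, minus strand), had 69.2, 12.7, 20.7 and 49.2 CPM in knockdown 1 to 4, against 11.6, 9.76, 7.29 and 3.499 CPM in control 1 to 4. Every library labelled knockdown lay above every library labelled control, at 37.9 ± 26.1 CPM under the knockdown label and 8.04 ± 3.51 CPM under the control label (SD, n = 4 each). The gap between knockdown 2 and control 1 was narrow, and on TMM-scaled library sizes the labels overlapped, with 11.3 CPM in knockdown 2 and 13.5 CPM in control 1; on that scale 2.54% of all tested genes did not overlap. ANO3, a gene on the opposite strand, shares 175 exonic bases with MUC15 and reached at most 4.35 CPM.

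MUC20, a small membrane mucin first described in kidney (chromosome 3 from 195720882 to 195741123, plus strand), varied least. It had 12.5, 11.05, 7.19 and 11.5 CPM in knockdown 1 to 4, against 4.54, 2.65, 4.28 and 15.3 CPM in control 1 to 4. Control 4 was the highest of all, so the labels overlapped. Its counts are uncertain, because 76.7% of the 31-base windows of its transcript also occur in transcripts of other genes, 60.3% in the pseudogene MUC20P1 and 37.4% in MUC20-OT1. MUC20-OT1 shares 1820 exonic bases with MUC20 on the same strand and had 19.7 to 53.1 CPM under the knockdown label and 11.4 to 47.6 CPM under the control label. Of the other 8 mucins with a complete coding transcript, none shared over 5% of its windows with other genes, and MUC19 was not searched. Windows repeated within the same transcript made up 48.2% in MUC1, 41.9% in MUC4 and 36.4% in MUC5B.

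Compared per kilobase of exon, the leading surface mucin changed from library to library. MUC21 led in knockdown 1, with 52.9% of the summed CPM per kb, and in knockdown 4, with 91.3%. MUC16 led in knockdown 2 with 58.3% and MUC15 in knockdown 3 with 39.1%. Under the control label, MUC1 led in control 1 with 64.04%, and MUC21 in control 2 with 63.4% and in control 3 with 80.2%. MUC20 led in control 4 with 72.9%, a share as uncertain as its counts. In CPM without length, MUC4 replaced MUC15 as the leader of knockdown 3, with 30.4%, and the other 7 leaders were the same.

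**Figure D2:**
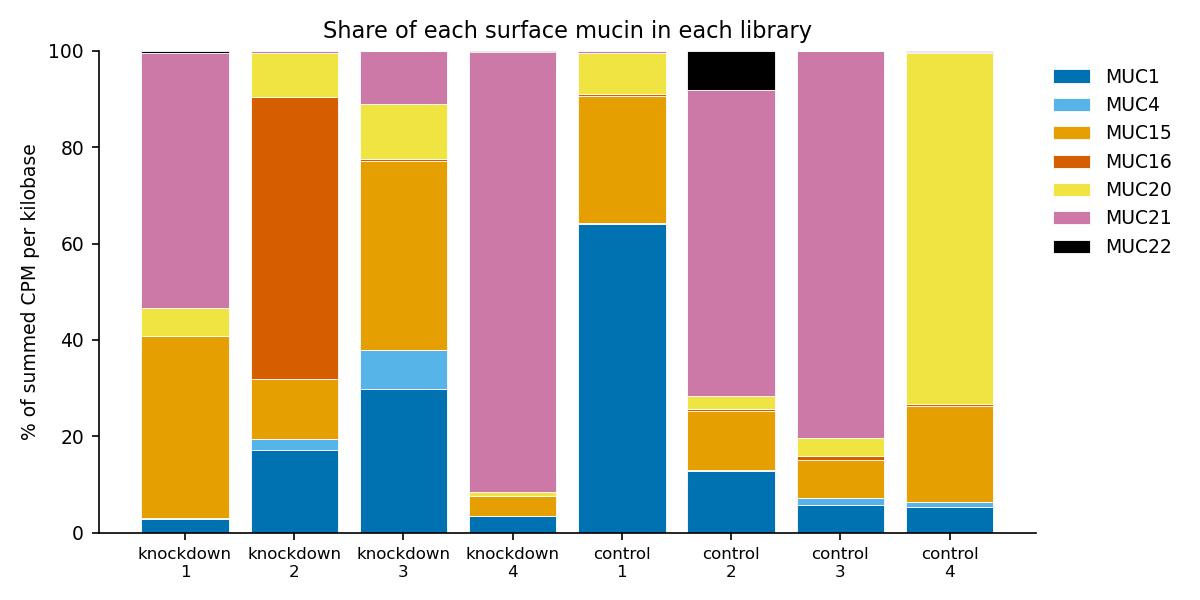
Share of each of the 7 surface mucins in their summed CPM per kilobase of exon (stacked bars, % axis from 0 to 100), 1 bar per library, with those labelled knockdown on the left. MUC21 takes over 50% of knockdown 1, knockdown 4, control 2 and control 3. MUC16 leads knockdown 2, MUC15 knockdown 3, MUC1 control 1 and MUC20 control 4. Most of the MUC20 transcript is shared with other genes, so its counts are uncertain.

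Set against each other, the gland mucins exceeded the surface mucins in 1 library of each label. The 3 gland mucins summed to 2.66, 69066, 1.73 and 3.75 CPM in knockdown 1 to 4, against 4009, 0.955, 1.95 and 0.596 CPM in control 1 to 4. The 7 surface mucins summed to 199.5, 787.8, 83.3 and 1274 CPM in knockdown 1 to 4, against 56.1, 96.0, 114.7 and 22.03 CPM in control 1 to 4. The gland mucins took 6.91% of all counts in knockdown 2 (Wilson 95% interval 6.90 to 6.92) and 0.401% in control 1 (0.399 to 0.403), and at most 0.000375% in the other 6 libraries. The log2 ratio of gland to surface sums was -6.18, 6.45, -5.51 and -8.37 in knockdown 1 to 4, against 6.16, -6.51, -5.80 and -4.99 in control 1 to 4, with 0.1 CPM added to each sum. The label means of this ratio, -3.40 ± 6.68 under the knockdown label and -2.79 ± 6.00 under the control label (SD, n = 4 each), differed by far less than the spread within a label. The difference of the means, knockdown minus control, was -0.61, and it was -3.90 without knockdown 2 and 2.37 without control 1. The surface sum had a narrower range, from 22.03 to 1274 CPM, and was lowest in control 4.

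**Figure D3:**
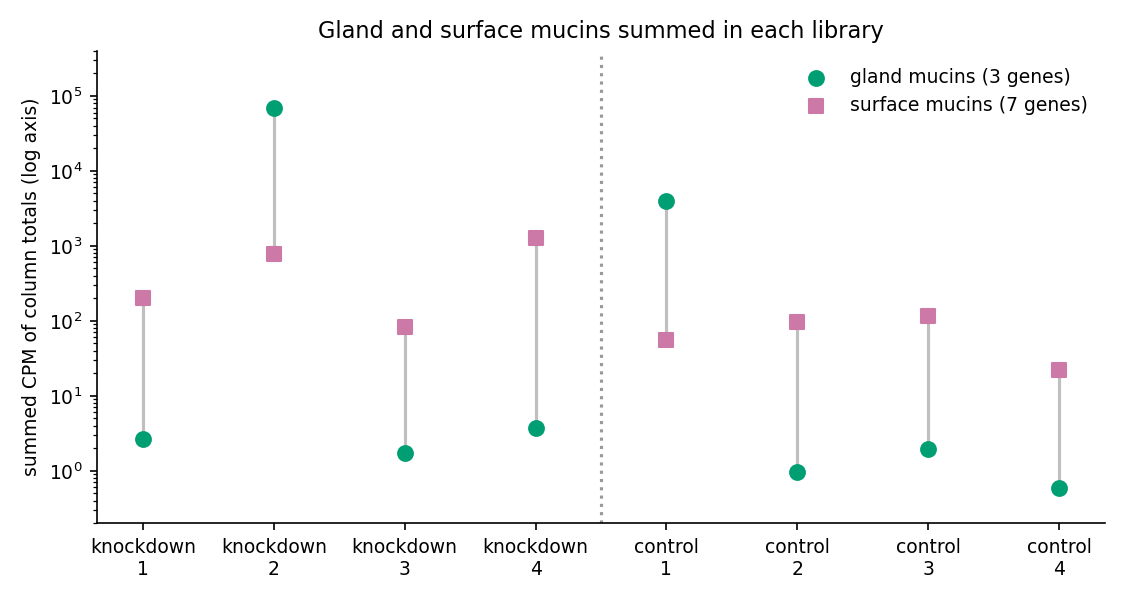
Summed CPM of column totals (log axis) of the 3 gland mucins (circles) and the 7 surface mucins (squares) in each library, joined by a line. The circle lies above the square in knockdown 2 and control 1 alone, at 69066 against 787.8 CPM and at 4009 against 56.1 CPM.

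Beside the marker lists, the gland mucin sum was high in the same libraries as the gland marker sum, and low in the other 6. The surface mucin sum had no such match with the squamous markers: control 4 held 39214 CPM of squamous markers with 22.03 CPM of surface mucins, while knockdown 2 held 982 CPM with 787.8 CPM. In knockdown 2 MUC16 alone made up 92.2% of the surface mucin sum. The 5 markers of simple epithelium, KRT7, KRT8, KRT18, KRT19 and EPCAM, summed to 312, 1535, 32.6 and 551 CPM in knockdown 1 to 4, against 766, 276, 384 and 807 CPM in control 1 to 4. The part of these cell types in the mucin values was not tested.

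**Figure D4:**
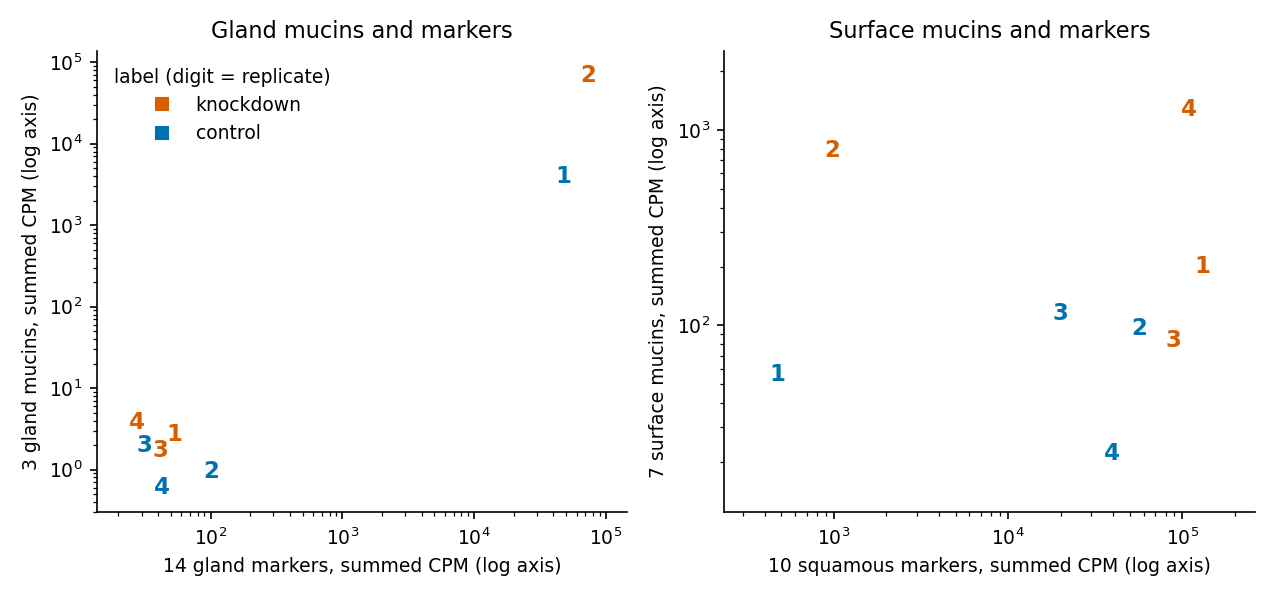
On the left, the summed CPM of the 3 gland mucins against that of 14 gland markers, and on the right, the summed CPM of the 7 surface mucins against that of 10 squamous markers (log axes; 1 digit per library, coloured by label). Knockdown 2 and control 1 lie apart on the left at 72951 and 47814 CPM of gland markers, and the same libraries have the lowest squamous sums on the right.

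Between the labels, 0 of the 10 mucins passed the edgeR quasi-likelihood test at an adjusted p of 0.05. Over all 21192 genes tested edgeR called 0 (0%), and limma-voom likewise 0, while DESeq2 called 146 of 24821 (0.588%). At an unadjusted p under 0.05 edgeR placed 1013 genes (4.78%), of which 615 were higher (2.90%) and 398 lower (1.88%) under the knockdown label. The filter on low counts kept 7 of the 10 mucins and left out MUC7, MUC19 and MUC22, whose counts are near 0 in most libraries. All 7 had a fitted value above 0, against 46.8% of all tested genes, but each of these values compares the same 8 libraries. The groups did not overlap for 1 of the 7, MUC15, against 2.35% of all tested genes on this scale.

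MUC15 had a log2 fold change of 2.40 (SE 0.661), with an unadjusted p of 0.00556 and an edgeR adjusted p of 0.981. With each library left out its value ran from 1.85, without knockdown 1, to 2.78, without control 1. It was 3.09 without both knockdown 2 and control 1 (edgeR adjusted p = 0.302), and DESeq2 gave an adjusted p of 0.117. MUC16 had a log2 fold change of 5.74 (SE 2.16; unadjusted p = 0.0263, edgeR adjusted p = 0.981), which knockdown 2 alone sets: without it the value was -0.33. MUC4 stood at 2.29 (SE 1.06, edgeR adjusted p = 0.981), and at 1.19 without knockdown 3 and 3.63 without control 3.

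MUC5B had a log2 fold change of 3.56 with a larger standard error of 3.68, and ran from -8.65 without knockdown 2 to 13.93 without control 1. It was 1.71 without both. MUC21 stood at 3.41 (SE 2.36), and at 0.67 without knockdown 4, the library with 1152 CPM. MUC1 stood at 0.78 (SE 0.954), with 2.05 when control 1 was left out and 0.24 when knockdown 4 was. MUC20 stood at 0.83 (SE 0.569), and at 1.60 without control 4, the library with 15.3 CPM. The edgeR adjusted p was 0.981 for MUC5B, MUC21 and MUC20 and 0.989 for MUC1. With no filter on low counts, edgeR gave 6.73 (SE 3.58) for MUC7, 6.78 (SE 2.52) for MUC19 and -0.69 (SE 1.94) for MUC22, with adjusted p of 0.773, 0.773 and 0.974. The values of MUC7 and MUC19 rest on libraries at or near 0 counts and on knockdown 2.

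**Figure D5:**
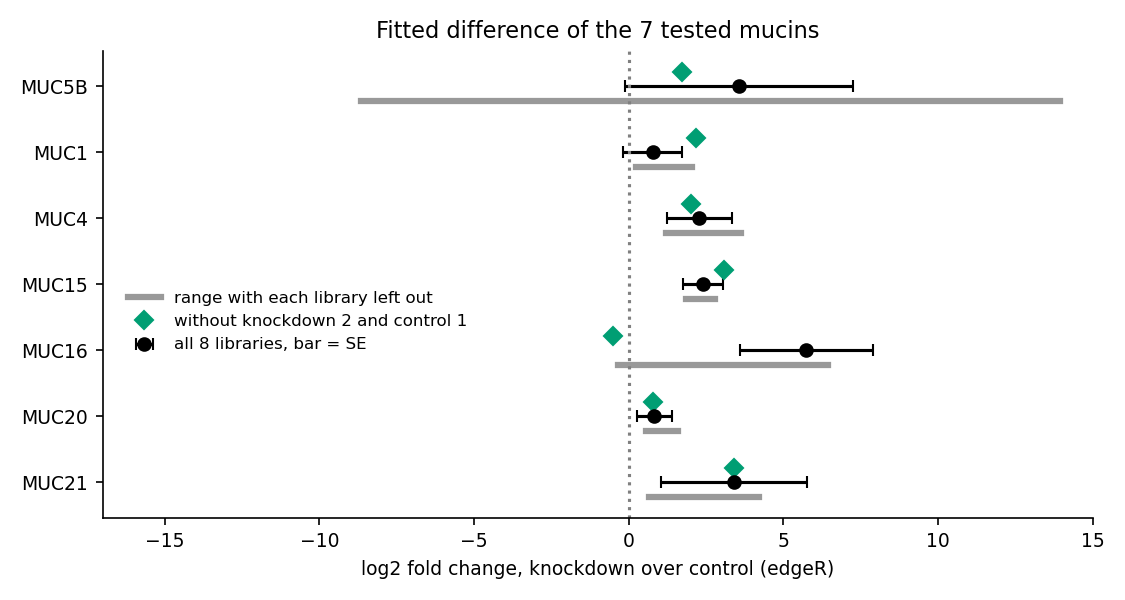
Fitted log2 fold change, knockdown over control, of the 7 tested mucins (edgeR; black point with its standard error), the range with each library left out (grey bar), and the value without knockdown 2 and control 1 (green diamond). MUC5B runs from -8.65 to 13.93 and MUC16 from -0.33 to 6.43, while MUC15 keeps between 1.85 and 2.78.

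Of 11 further mucin genes matched by symbol, 6 had their highest level in knockdown 2, among them MUC13 with 2 counts and MUC2 with 20 counts there. Of the 4 that passed the filter 3 were highest in knockdown 2, against 18.6% of all tested genes. MUCL1, a small secreted mucin-like protein of mammary and sweat glands, had 2.94, 1870, 7.02 and 0.932 CPM in knockdown 1 to 4, against 0, 17.5, 0 and 4.63 CPM in control 1 to 4. MUC6, a gel-forming mucin of gastric glands, had 24.5 CPM in knockdown 2 and 0.266 to 4.13 CPM elsewhere. EMCN, an endothelial membrane mucin, had 0.494 to 12.6 CPM under the knockdown label and 0.461 to 13.9 CPM under the control label. The filter kept 4 of the 11, all fitted higher and 0 called, with a median log2 fold change of 1.64 beside -0.05 over all tested genes. Without knockdown 2 that median was -0.17.

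Of the enzymes that start the sugar chains, 16 of 20 had counts in all 8 libraries. The GALNT family attaches the first sugar, N-acetylgalactosamine, to serine and threonine. Of its 20 members 17 were tested, with 10 fitted higher, 7 lower and 0 called, and a median log2 fold change of 0.14, or -0.51 without knockdown 2 and -0.65 without knockdown 2 and control 1. GALNTL5 had 0 counts in every library. GALNT1 had 102.3 to 152.6 CPM under the knockdown label and 45.9 to 258.5 CPM under the control label. GALNT2 had 57.7 to 94.3 CPM under the knockdown label and 62.5 to 337.1 CPM under the control label. GALNT6 had 106.8, 377.7, 221.7 and 2.47 CPM in knockdown 1 to 4, against 105.0, 34.4, 3.41 and 60.5 CPM in control 1 to 4. All 3 overlapped between labels, and 7 of the 17 tested were highest in knockdown 2, against 18.6% of all tested genes.

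Enzymes that extend and cap these chains had 12 of 14 tested members fitted higher under the knockdown label, with 2 lower, 0 called by edgeR and a median log2 fold change of 1.10, or 0.57 without knockdown 2. Of the 14 tested, 9 were highest in knockdown 2, against 18.6% of all tested genes. DESeq2 called 2 of these 14, CHST2 and FUT3, against 0.588% of the 24821 genes it tested. It gave no adjusted p for ST6GALNAC1, which is among the 14. FUT3, the fucosyltransferase of the Lewis blood group, had 45.3, 144.7, 38.4 and 98.1 CPM in knockdown 1 to 4, against 16.7, 27.4, 6.39 and 5.86 CPM in control 1 to 4. Its groups did not overlap, which held for 2.35% of all tested genes. Its log2 fold change was 2.57 (SE 0.617, edgeR adjusted p = 0.981, DESeq2 adjusted p = 0.0331), or 2.26 to 3.03 with each library left out. CHST2, a sulfotransferase that adds sulfate to N-acetylglucosamine, had 117.3, 9.19, 288.3 and 4.74 CPM in knockdown 1 to 4, against 3.45, 7.18, 1.054 and 9.65 CPM in control 1 to 4. Knockdown 1 and knockdown 3 stood apart and the labels overlapped (log2 fold change 4.71, SE 1.44; edgeR adjusted p = 0.981, DESeq2 adjusted p = 0.0208). ST3GAL1, which caps chains with sialic acid, had 39.8 to 105.6 CPM under the knockdown label and 67.5 to 237.2 CPM under the control label. FUT2, the secretor fucosyltransferase, had 54.7 to 221.8 CPM under the knockdown label and 14.6 to 134.3 CPM under the control label.

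The mucous secretory programme, the transcription factors and secreted partners of mucous cells, was highest in knockdown 2 for 14 of its 17 members. Over the 11 members that passed the filter the count was 8, against 18.6% of all tested genes. ZG16B, a lectin of saliva, had 0.615, 17210, 4.03 and 2.03 CPM in knockdown 1 to 4, against 1728, 0.0971, 1.30 and 0.115 CPM in control 1 to 4. BPIFB2, a secreted lipid-binding family member, had 13618 CPM in knockdown 2 and 2296 CPM in control 1, and at most 0.0384 CPM in the other 6 libraries. ZG16B and BPIFB2 are also on the gland marker list, so the programme and the gland markers are not separate lists. XBP1, a transcription factor of secretory cells, had 104.3, 1723, 120.3 and 73.9 CPM in knockdown 1 to 4, against 718.0, 67.3, 67.4 and 53.2 CPM in control 1 to 4. The filter kept 11 of the 17, with 10 fitted higher, 1 lower and 0 called. Their median log2 fold change of 2.15 was set by the libraries with gland transcripts, at -2.53 without knockdown 2 and 5.12 without control 1.

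Of the 10 partners of the surface mucins at the membrane, 1, MSLN, was highest in knockdown 2, against 18.6% of all tested genes. All 10 were tested, with 7 fitted higher, 3 lower and 0 called. Their median log2 fold change was 0.22 (-0.01 without knockdown 3 to 0.59 without control 4). EGFR, the receptor to which MUC1 couples, had 2783, 199.6, 333.7 and 450.8 CPM in knockdown 1 to 4, against 114.9, 396.1, 452.6 and 11162 CPM in control 1 to 4. Control 4 and knockdown 1 stood apart, and the log2 fold change of -1.37 (SE 1.52, edgeR adjusted p = 0.984) was 1.91 without control 4. CTNNB1, the catenin that binds the tail of MUC1, had 215.01 to 479.2 CPM under the knockdown label and 326.8 to 944.9 CPM under the control label. EZR, which ties membrane proteins to actin, had 132.6 to 617.6 CPM under the knockdown label and 116.8 to 363.3 CPM under the control label.

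The genes nearest in pattern to each mucin were found by the root mean square difference of log2(CPM + 1), centred over the 8 libraries, among 16565 genes. Genes whose symbols begin with MUC or MUCL and a number were left out beforehand, so these mucins could not be neighbours of each other. For MUC5B the nearest were BPIFB2 (0.61), ZG16B (0.74) and PIGR (1.28), all gland markers, beside a spread of 5.54 for MUC5B itself. For MUC7 they were STATH (0.55), PIP (0.91) and SMR3B (1.24), beside a spread of 4.45. STATH and SMR3B start 434.6 and 60.4 kb from MUC7 on chromosome 4. SMR3B, a proline-rich salivary protein, had 626.3 CPM in knockdown 2 and 22.9 CPM in control 1, and at most 0.0548 CPM elsewhere. For MUC19 they were CAPN9 (0.18), AGR3 (0.18) and TFF1 (0.19), beside a spread of 1.76, all with 30.5 to 39.8 CPM in knockdown 2 and at most 0.324 CPM elsewhere. For MUC16 they were CYP4Z1 (0.65), CST2 (0.72) and CST5 (0.83), beside a spread of 2.67, with 96.2 to 197.0 CPM in knockdown 2. Points share the libraries, so these values describe likeness over 8 libraries and nothing more.

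The surface mucins other than MUC16 had other neighbours. MUC21 was nearest MAL (0.63), TMPRSS11B (0.67) and CRNN (0.96), beside a spread of 3.46. MAL, a membrane protein of differentiated squamous cells, had 195.4, 1.60, 3.35 and 1535 CPM in knockdown 1 to 4, against 0.761, 105.7, 47.3 and 0.192 CPM in control 1 to 4. CRNN, the cornulin of upper squamous layers, had 586.7, 0.391, 34.4 and 2931 CPM in knockdown 1 to 4, against 0.435, 64.9, 109.6 and 0.154 CPM in control 1 to 4. MUC22 was nearest ADAM19 (0.42), ASPN (0.51) and MYEOV (0.55), beside a spread of 1.32, and none of its nearest genes were those of MUC21. MUC1 was nearest CGN (0.67), the tight junction protein cingulin, with SLCO4A1-AS2 (0.74) and CLDN5 (0.75), beside a spread of 1.38. MUC4 was nearest IL1RL1 (0.61), PTGES (0.62) and NLGN4X (0.63), beside a spread of 1.36. MUC15 was nearest SLC13A4 (0.46), TRIM58 (0.48) and AURKC (0.51), beside a spread of 1.24. MUC20, with the smallest spread of 0.73, was nearest ZNF823 (0.32), IDI1 (0.36) and CYP2R1 (0.37).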

How the data were processed

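The deposited table gives raw read counts, 1 whole number per gene and library, to which the authors applied no scaling as far as the values show. The submitters' processing notes name STAR, Subread, featureCounts and hg38; not given in the sources used here were tool versions, gene annotation and strandedness. The labels name polyA RNA, but the labels' protocol describes ribosomal RNA depletion. CPM are counts scaled to the column total. Symbols were matched to 62666 rows, and 575 had none. Positions, lengths and transcripts come from GENCODE v29 (GRCh38, the assembly of hg38).

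Knockdown was compared with control over all 8 libraries by the edgeR 4.0.16 quasi-likelihood test in R 4.3.3 (TMM factors of 0.75 to 1.19, filterByExpr, intercept and group), with Benjamini-Hochberg adjustment over 21192 genes holding at least 94.4% of each library's counts. Standard errors are the fold change over the root of F. Alternatives were DESeq2 1.42.0, limma-voom 3.58.1, other scalings and filters, a replicate block and left-out libraries. Total counts were 30684584 to 61795990. Wilson intervals (95%) and the floor of 3 counts cover counting error only.

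The members, gene lists and markers were chosen with earlier results of these data known, so no list was given a p. Named were the 10 mucins, the 3 members of highest mean CPM in each list, any called member, the 3 nearest genes of each mucin with a mean of at least 1 CPM, COL1A1, leading markers and overlapping genes. MSLN, FUT3, CHST2, KRT13, KRT4, GALNTL5, MUC13, MUC2, DMBT1 and STATH as a marker were named after their values were seen. MUC8, on the list of other mucins, had no matched row.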

Additional observations from a re-analysis of the deposited data

Results flagged for a closer look

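Single libraries stood apart from the other 3 of their label in 26 of 56 groups of 4 by Dixon's rule. The rule's rate of 1 in 20 is for independent, normally distributed values. These are CPM of genes chosen with earlier results known, and sums over them, so the 26 cannot be set against that rate. The share over all genes was not computed. Knockdown 2 did so at 60244 CPM of MUC5B, 8781 CPM of MUC7, 40.9 CPM of MUC19, 726.6 CPM of MUC16 and 69066 CPM of summed gland mucins. It also did so at 1870 CPM of MUCL1, 24.5 CPM of MUC6, 17210 CPM of ZG16B, 13618 CPM of BPIFB2 and 1723 CPM of XBP1. Control 1 did so at 3948 CPM of MUC5B, 60.9 CPM of MUC7, 4009 CPM of summed gland mucins, 1728 CPM of ZG16B, 2296 CPM of BPIFB2 and 718.0 CPM of XBP1, and at a log2 ratio of gland to surface mucins of 6.16.

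The other libraries far from their label's rest were led by different genes. Knockdown 4 had 1152 CPM of MUC21 and knockdown 1 had 2783 CPM of EGFR. Control 2 had 11.1 CPM of MUC22, 0.291 CPM of MUC19 and 237.2 CPM of ST3GAL1. Control 3 had 8.96 CPM of MUC4. Control 4 had 15.3 CPM of MUC20, 134.3 CPM of FUT2 and 11162 CPM of EGFR.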

How the results depend on the processing

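Of 358 recomputed values, 346 kept their direction and their side of the threshold or stayed within their spread. Many of these are counts of called members, which had little room to change: the smallest edgeR adjusted p of the main fit was 0.981. A median could also change sign within its spread, as that of O-glycan initiation did, from 0.14 to -0.51 without knockdown 2. The 346 is therefore no measure of how firm the results are. The number of genes called was 146 with DESeq2 and 0 to 1 when single libraries were dropped. The gene called without knockdown 2, and the 1 gene called without both knockdown 2 and control 1, was SPRR2F, a cornified envelope gene named after its values were seen. No mucin was called in any setting. MUC5B turned to -8.65 without knockdown 2 (highest 13.93 without control 1), and MUC16 to -0.33 without knockdown 2 (highest 6.43 without control 3) and -0.52 without both knockdown 2 and control 1. List medians moved to -0.17 without knockdown 2 and -0.27 without both libraries for other mucins, with a range of -0.17 to 2.03 over single libraries left out. They moved to -0.65 without both libraries for O-glycan initiation, and ran from -2.53 to 5.12 over single libraries left out for the mucous secretory programme. DESeq2 called 2 O-glycan extension genes, against 0.588% of all genes it tested, and gave no adjusted p for MUC5B, MUC7, MUC19 and MUC16. These settings differ by the libraries left out or the count model; no further cause was tested. Library totals without TMM shifted the median of all genes by -0.16 on the log2 scale. The labels do not say whether the replicate numbers pair the libraries. Same-numbered deviations from the label means correlated at -0.646, -0.471, -0.369 and -0.396, and 0 of 8 libraries correlated best with its own number. Because gland, muscle and squamous markers differed so widely between libraries, these values cannot tell whether same-numbered libraries were handled together. With the replicate block 0 genes were called, and MUC15, MUC5B and MUC16 had log2 fold changes of 2.27, 1.64 and 1.07. Counts of 0 to 10 limit MUC7, MUC19 and MUC22 in most libraries.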
